A study of Mus musculus with 7 samples.

Results

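The 10 genes of glutathione synthesis, reduction, cystine uptake and breakdown were followed by their symbols in the deposited table, which holds all 10 members among 14637 genes tested. The members were Gclc, Gclm, Gss, Gsr, Slc7a11, Slc3a2, Ggct, Oplah, Chac2 and Ggt5. The data were RNA sequencing counts from tissue described as whole heart lysate, of male C57BL/6J mice. Of 7 libraries, 4 came from non-transgenic (NTG) mice, numbered 1 to 4, and 3 from transgenic mice with cardiac-specific expression of full-length mouse Nrf2 (mNrf2-TG), numbered 17 to 19, with 1 library per mouse. The transgene is driven by the αMHC promoter, which is active in cardiomyocytes, while the counts were made from all cells of the lysed tissue. Sources differ on age, with 6 months in the label of the mNrf2-TG libraries, 7 to 8 months in the series description and 6 to 7 months in the methods, and the NTG label states none. NTG mice were litter mates of the transgenic mice per the methods.

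Glutathione is the main small thiol of the cell and is built in a pair of steps. Glutamate-cysteine ligase, a catalytic subunit (Gclc) with a modifier subunit (Gclm), joins glutamate to cysteine, and glutathione synthetase (Gss) adds glycine. Glutathione reductase (Gsr) returns oxidized glutathione to its reduced form. Cysteine reaches the cell partly as cystine through the exchanger formed by Slc7a11 and its heavy chain Slc3a2, and glutathione is cleaved outside the cell by γ-glutamyl transferases such as Ggt5 and inside it by Chac2. Ggct and Oplah act on products of this breakdown. Nrf2 is known to bind antioxidant response elements near many genes of this pathway, among them both subunits of the ligase.

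The libraries held 6534684 to 8405857 counts over the genes of the table. Counts of Nfe2l2, the gene of Nrf2, lay at 729 to 1392 in NTG and, with reads of the transgene included, at 10912 to 12839 in mNrf2-TG. Values below are TMM-normalized counts, that is, counts scaled to a common library size, and the Log2FC is that of mNrf2-TG over NTG from edgeR's quasi-likelihood test with its standard error (SE), and adjusted p-values are those of Benjamini and Hochberg across the whole table. A gene was called at an adjusted p under 0.05. The 8 cardiomyocyte markers were counted in every library, with summed normalized counts of 743755 to 782344 (NTG) and 630072 to 656612 (mNrf2-TG), and 4 of 8 were called lower. Markers of other cells moved between the groups. The 6 macrophage markers summed to 775 to 1211 (NTG) and 1452 to 2161 (mNrf2-TG), with 4 of 6 called higher, and the 6 fibroblast markers to 7645 to 9947 (NTG) and 10745 to 11293 (mNrf2-TG), with 4 of 6 called higher. Of the 6 endothelial markers, 2 were called lower and 1 higher, and of 5 smooth muscle and pericyte markers 1 was called lower. Among 2 atrial, 3 red blood cell, 3 adipocyte and 4 skeletal muscle markers, Myh1 of skeletal muscle was the call made, and it was lower. The atrial markers Myl7 and Myl4 had 0 to 4 and 17 to 65 counts, and Sln, also listed, was not in the table. Myl2 of the cardiomyocyte list had 54302 to 110676 counts. Atrial transcripts were thus scarce in these lysates, and how much atrium they held was not measured. The adipocyte marker Plin1 had at most 3 counts in any library. The part of these cells in the results below was not tested, and in whole tissue fewer cells of a type and less RNA per cell cannot be told apart.

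Synthesis and reduction genes rose in mNrf2-TG, with the catalytic subunit as the exception, and the heavy chain of the cystine exchanger fell. Gclm rose 6.42-fold, Gsr 2.99-fold, Gss 1.72-fold and Oplah 1.35-fold, and Slc3a2 fell to 0.514 of its NTG level, whereas Gclc, Slc7a11, Ggct, Chac2 and Ggt5 were not called. Thus 5 of 10 members were called, 4 higher and 1 lower, where 17.2% of all genes tested were called, 8.48% higher and 8.73% lower. The normalized counts of 6 of 10 members did not overlap between the groups, against 29.7% of all genes. An unadjusted p under 0.05 together with a change of more than 2-fold was reached by Gclm and Gsr, 2 of 10 members, against 5.65% of all genes. The median Log2FC was 0.19 over the members and 0.0012 over all genes tested. The same 4 higher calls and 1 lower call were made in every fit that omitted 1 library and with each other test, scaling and filter tried.

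**Figure D1:**
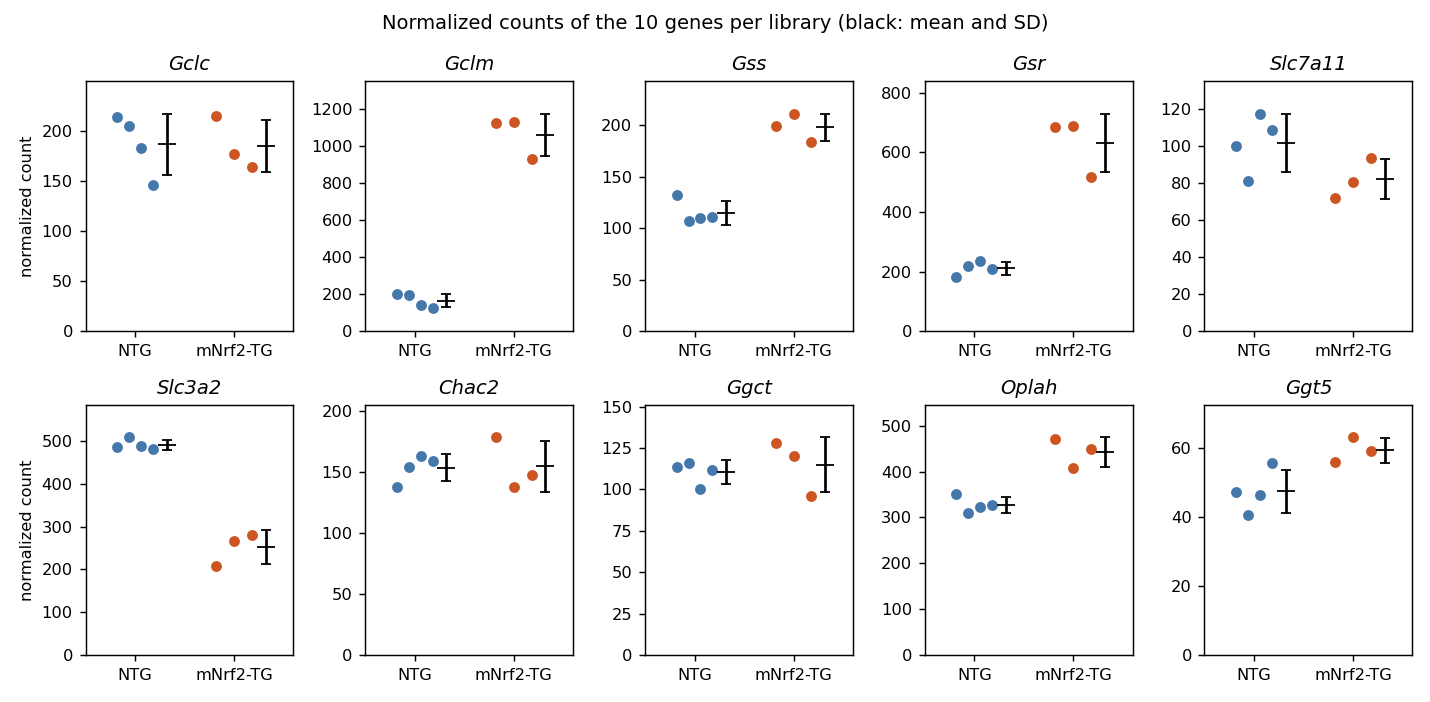
Normalized counts (vertical axes, each starting at 0) of the 10 genes in the 4 NTG and 3 mNrf2-TG libraries, 1 point per library, with the mean and SD in black. The mNrf2-TG points lie above all NTG points for Gclm, Gss, Gsr, Oplah and Ggt5, below them for Slc3a2, and overlap them for Gclc, Slc7a11, Chac2 and Ggct.

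The DNA before the start of transcription is shown for the gene with the largest increase, Gclm, for Ggct, which holds the same motif and was not called, and for Slc7a11, the light chain of the cystine exchanger. RefSeq windows of GRCm38.p6, from 250 bases before to 50 after the start, were matched for 6 of 10 members, namely Gclm, Gss, Slc7a11, Slc3a2, Ggct and Chac2. The window of Slc3a2, at chr19:8713848-8714147, lies inside the span that GENCODE annotates for that gene (8706882 to 8723369), not before it. The core of the antioxidant response element was searched as TGACNNNGC on both strands, and an element of the kind bound by Atf4 as TGATGNAA on both strands. Capitals mark these matches, and bases that GENCODE annotates as transcribed were left out. The sequences read 5′ to 3′ on the strand of the gene, at chr3:122245307-122245556 on the plus strand for Gclm, chr6:54992951-54993117 on the minus strand for Ggct and chr3:50443615-50443863 on the minus strand for Slc7a11.
Gclm: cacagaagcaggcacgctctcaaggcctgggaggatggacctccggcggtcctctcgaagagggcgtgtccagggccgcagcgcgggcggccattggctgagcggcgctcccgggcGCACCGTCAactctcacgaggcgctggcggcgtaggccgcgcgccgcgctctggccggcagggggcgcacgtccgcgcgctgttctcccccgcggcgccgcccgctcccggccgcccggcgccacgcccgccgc
Ggct: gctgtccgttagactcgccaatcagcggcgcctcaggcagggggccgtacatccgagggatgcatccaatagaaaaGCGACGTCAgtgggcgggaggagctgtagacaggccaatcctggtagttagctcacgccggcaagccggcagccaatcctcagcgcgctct
Slc7a11: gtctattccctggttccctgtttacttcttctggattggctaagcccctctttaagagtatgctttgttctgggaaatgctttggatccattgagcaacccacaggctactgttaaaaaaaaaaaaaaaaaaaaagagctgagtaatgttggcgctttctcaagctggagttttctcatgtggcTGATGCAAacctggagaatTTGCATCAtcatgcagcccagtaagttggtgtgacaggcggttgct
The core was found in the windows of 2 of 6 members, Gclm and Ggct, and in 12.4% of all 32851 windows. In Gclm it was TGACGGTGC on the opposite strand, beginning 134 bases before the start. Ggct held TGACGTCGC on the opposite strand 174 bases before the start, and TGACGCTGC from base 6 after it, in the part not printed. Slc7a11 held TGATGCAA 66 bases before the start and again on the opposite strand 47 bases before it, where 3.97% of all windows hold such an element. The letters TGANNNNGC, a looser form of the core, were found in 3 of 6 members and in 41.3% of all windows, and one of the matches in Slc7a11 overlapped its second TGATGCAA. These are matches of letters in a short window, and binding was not measured.

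Gclm and Gclc form one enzyme, and their transcripts differed in response. Gclm (Entrez gene 14630, chromosome 3, 122245557 to 122270732 in GRCm38) encodes the modifier subunit, which raises the affinity of the ligase for glutamate and eases its inhibition by glutathione. Its normalized counts were 199, 194, 141 and 126 in NTG 1 to 4 and 1121, 1130.3 and 929.7 in mNrf2-TG 17 to 19. The lowest mNrf2-TG library thus lay far above the highest NTG library. The mean rose from 165 ± 36.5 (SD, n = 4) to 1060.5 ± 113 (SD, n = 3), a Log2FC of 2.68 (SE 0.15, adjusted p = 5.41e-06 from edgeR). It was the 93rd largest increase among the 14637 genes. Exons of Gclm share 296 bases with Gm17494 on the other strand and 244 bases with the pseudogene Gm6061 on the same strand.

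Gclc (Entrez gene 14629, chromosome 9, 77754535 to 77794485) encodes the catalytic subunit. Its normalized counts were 214, 204, 183 and 145 in NTG and 214, 176 and 163 in mNrf2-TG, so the groups overlapped over nearly their whole range. The Log2FC was -0.02 (SE 0.15, adjusted p = 0.954 from edgeR), with a 95% interval from -0.34 to 0.31. On the linear scale that interval runs from 0.788 to 1.24 times the NTG level, so a rise of the size seen for Gclm lies outside it.

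The ratio of the subunits within a library does not depend on how libraries are scaled. Counts of Gclm per count of Gclc were 0.93, 0.947, 0.775 and 0.87 in NTG and 5.23, 6.39 and 5.68 in mNrf2-TG. Every mNrf2-TG ratio was above every NTG ratio, and the mean difference was 2.71 on the log2 scale, or 6.54-fold (exact permutation test over 35 splits, two-sided, p = 0.0286, the smallest possible here, and 0.0286 after adjustment over 3 ratios). Because Gclc hardly moved, this difference mostly repeats the rise of Gclm and is not separate evidence of it. Per base of annotated exon, the transcripts of Gclm were at 0.464 to 0.567 of those of Gclc in NTG and at 3.13 to 3.83 times those of Gclc in mNrf2-TG.

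Gss and Gsr, which add glycine and reduce the oxidized product, both rose. Gss (Entrez gene 14854, chromosome 2, 155563181 to 155592810) had normalized counts of 132, 107, 110.4 and 111 in NTG and 199, 211 and 184 in mNrf2-TG. NTG 1 was the highest of its group, and still below all mNrf2-TG libraries. The Log2FC was 0.79 (SE 0.11, adjusted p = 0.00162 from edgeR). Exons of Gss share 395 bases, 6.68% of their length, with Acss2 on the other strand. On that strand they also share 385 bases with the antisense gene Gssos2 and 322 bases with Gssos1. The use of strand in counting was not given in the sources used here. For Acss2, an acetyl-CoA synthetase, the Log2FC was 0.46 (SE 0.12, adjusted p = 0.0293). The ratio of Gss to Gclc counts was 0.619, 0.525, 0.606 and 0.761 in NTG and 0.93, 1.19 and 1.13 in mNrf2-TG, a difference of 0.79 on the log2 scale (exact permutation test, two-sided, p = 0.0286, adjusted 0.0286). Since Gclc hardly moved, this ratio mostly repeats the rise of Gss and adds little to it.

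Gsr (Entrez gene 14782, chromosome 8, 33652523 to 33698163) uses NADPH to keep glutathione reduced. Normalized counts were 180.5, 219.6, 235 and 207 in NTG and 687, 689.8 and 518 in mNrf2-TG. The groups were well apart, and mNrf2-TG 19 was the lowest of its group, as it was for Gclm. The Log2FC was 1.58 (SE 0.12, adjusted p = 5.09e-05 from edgeR), and fits without 1 library gave 1.51 to 1.71.

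**Figure D2:**
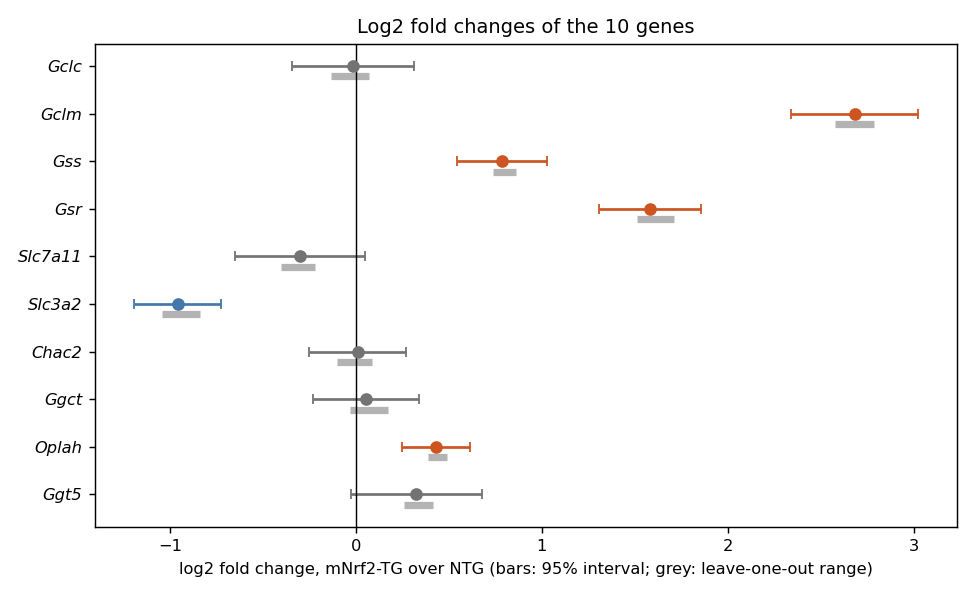
Log2FC of the 10 genes (horizontal axis) with 95% intervals from edgeR, in orange where called higher, blue where called lower and grey where not called, and grey bars for the range over fits without 1 library. The interval of Gclm runs from 2.34 to 3.02 and that of Gclc from -0.34 to 0.31.

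The chains of the cystine exchanger did not rise. Slc7a11 (Entrez gene 26570, chromosome 3, 49892526 to 50443614) is the light chain, which exchanges cystine for glutamate. Normalized counts were 100.01, 81, 118 and 109 in NTG and 72.1, 80.8 and 93.5 in mNrf2-TG. The groups overlapped, and the Log2FC was -0.30 (SE 0.16, adjusted p = 0.214 from edgeR), with a 95% interval from 0.637 to 1.03 times the NTG level. An increase above 1.03-fold lies outside that interval.

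Slc3a2 (Entrez gene 17254, chromosome 19, 8706882 to 8723369), the heavy chain, carries several amino acid exchangers to the cell surface. Normalized counts were 486, 509, 488 and 481 in NTG, with the lowest coefficient of variation of the members there (2.47%), and 208, 267 and 281 in mNrf2-TG. All mNrf2-TG libraries were below all NTG libraries. The mean fell from 491 ± 12.1 (SD, n = 4) to 252 ± 39.1 (SD, n = 3), a Log2FC of -0.96 (SE 0.10, adjusted p = 0.000473 from edgeR). The count of Slc7a11 per count of Slc3a2 was 0.207, 0.16, 0.242 and 0.226 in NTG and 0.349, 0.304 and 0.333 in mNrf2-TG. The ratio was thus 1.59-fold higher in mNrf2-TG without overlap, while the count of neither chain was higher (exact permutation test, two-sided, p = 0.0286, adjusted 0.0286).

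**Figure D3:**
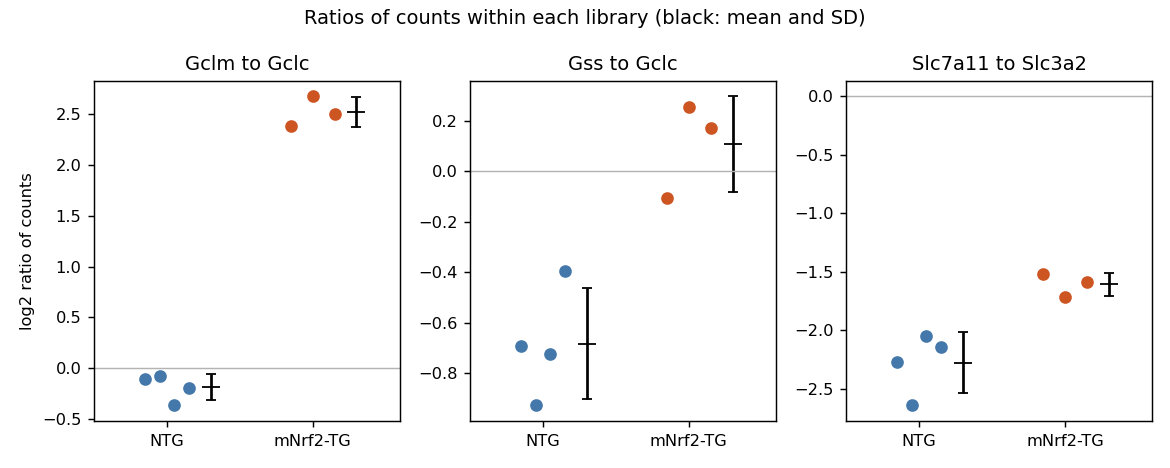
Log2 ratio of the counts of a pair of genes within each library (vertical axes), 1 point per library, with the mean and SD in black. All 3 ratios were higher in the 3 mNrf2-TG libraries than in any of the 4 NTG libraries, by 2.71 for Gclm to Gclc, 0.79 for Gss to Gclc and 0.67 for Slc7a11 to Slc3a2.

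Slc3a2 also pairs with other light chains, and Slc3a2 and Slc7a11 are known targets of Atf4 as well as of other regulators. None of the 4 other light chains found in the table, Slc7a5, Slc7a6, Slc7a7 and Slc7a8, was called. Of 14 listed targets of Atf4, 13 were in the table, 0 were called higher and 1 lower, Vldlr with a Log2FC of -0.43. That is 7.69% called in either direction, where 17.2% of all genes tested were called, 8.48% higher and 8.73% lower. The median Log2FC of the 13 was 0.12, and they moved both ways, 7 with a positive Log2FC. A difference between this short list and all genes was not tested, nor was the activity of Atf4. Of 11 listed Nrf2 targets outside glutathione metabolism, 9 were called higher and 0 lower, from Fth1 with a Log2FC of 0.40 to Srxn1 with 3.79. The pair not called were G6pdx and Hmox1, whose Log2FC values were 0.47 (adjusted p = 0.0744) and -0.34 (adjusted p = 0.565).

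Of the 4 members that act in the breakdown of glutathione and the reuse of its parts, Oplah was called and Chac2, Ggct and Ggt5 were not. Chac2 (Entrez gene 68044, chromosome 11, 30976707 to 30986350) cleaves glutathione in the cytosol into 5-oxoproline and cysteinylglycine. Its normalized counts were 138, 154, 163 and 159 in NTG and 179, 138 and 148 in mNrf2-TG, with a Log2FC of 0.01 and a 95% interval from 0.84 to 1.21 times NTG (adjusted p = 0.969 from edgeR). Ggct (Entrez gene 110175, chromosome 6, 54982580 to 54992950) releases 5-oxoproline from γ-glutamyl amino acids. It had 114, 116, 100.04 and 112 in NTG and 128, 120.2 and 96.2 in mNrf2-TG, and mNrf2-TG 19 lay below all NTG libraries while 17 and 18 lay above them. The Log2FC was 0.05 with a 95% interval from 0.852 to 1.26 times NTG (adjusted p = 0.814).

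Oplah (Entrez gene 75475, chromosome 15, 76296601 to 76328015) encodes 5-oxoprolinase, which opens 5-oxoproline to glutamate so that it can be used again. Normalized counts were 352, 311, 323 and 327 in NTG and 470.3, 407 and 450.3 in mNrf2-TG. The groups did not overlap, and the Log2FC was 0.43 (SE 0.0820, adjusted p = 0.00735 from edgeR). The adjusted p was at most 0.0369 over the 14 alternatives, the highest among the called members. Exons of Oplah share 385 bases with Exosc4 and 296 with Smpd5 on the other strand, neither of which was called.

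Ggt5 (Entrez gene 23887, chromosome 10, 75589340 to 75617200) cleaves glutathione and its conjugate leukotriene C4 at the cell surface. It had the fewest counts of the members, with raw counts of 41 to 56 (NTG) and 52 to 65 (mNrf2-TG). Normalized counts were 47.1, 40.5, 46.4 and 55.8 in NTG and 55.96, 63.1 and 59 in mNrf2-TG. The groups were divided only by a narrow gap between NTG 4 and mNrf2-TG 17, and the Log2FC of 0.32 was not called (SE 0.16, 95% interval -0.03 to 0.68, adjusted p = 0.189 from edgeR).

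Levels of different genes were set side by side per kb of annotated exon and scaled to an effective library size of 1000000 counts. In NTG the order was Slc3a2 at 18.5 ± 0.457, Chac2 at 15.5 ± 1.12, Gsr at 10.2 ± 1.12, Oplah at 7.46 ± 0.394, Gclc at 6.58 ± 1.07, Gclm at 3.49 ± 0.772, Gss at 2.58 ± 0.259, Ggct at 1.89 ± 0.122, Ggt5 at 1.06 ± 0.141 and Slc7a11 at 0.971 ± 0.149 (SD, n = 4). The libraries of Oplah and Gclc overlapped, as did those of Gclm and Gss, and of Ggt5 and Slc7a11. In mNrf2-TG, Gsr at 30.5 ± 4.73 and Gclm at 22.4 ± 2.39 came first, Chac2 stayed at 15.6 ± 2.14, and Slc3a2 at 9.49 ± 1.47 overlapped Oplah at 10.1 ± 0.736 (SD, n = 3). Gclc at 6.51 ± 0.93 was then below Gclm in every library. The order depended on the length used. With the longest annotated transcript in place of all exons, Gss in NTG moved from 2.58 to 4.69, above Gclm at 3.92, and Ggct from 1.89 to 3.70, overlapping Gclm. Oplah at 10.7 then stood above Gsr at 10.5 in NTG, and Slc7a11 at 1.47 above Ggt5 at 1.43, each pair with overlapping libraries. In mNrf2-TG, Gss at 8.08 then stood above Gclc at 7.17, also with overlap. With that length the mNrf2-TG libraries of Gsr and Gclm overlapped as well, and so did those of Chac2 and Oplah. Gclm was below Gclc in NTG and above it in mNrf2-TG with either length.

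**Figure D4:**
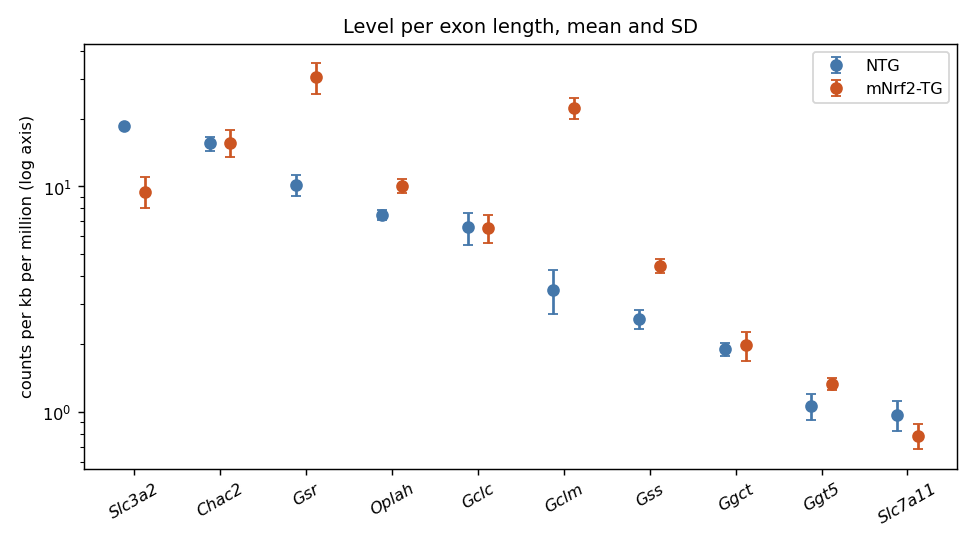
Level of each of the 10 genes as scaled counts per kb of annotated exon (vertical log axis), mean and SD of the 4 NTG libraries in blue and the 3 mNrf2-TG libraries in orange, ordered by the NTG mean. Gclm moved from 3.49 to 22.4 and Gsr from 10.2 to 30.5, while Gclc stayed at 6.58 and 6.51.

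Some genes followed the members closely over the 7 libraries, a description in which the points fall into the NTG and mNrf2-TG groups. Among 11310 genes with at least 10 counts in every library, the 3 with the highest Pearson r to Gclm were Gsta4 (0.997), Tmem59 (0.997) and Atp11a (0.996). For Gsr they were Rtn4 (0.998), Armh3 (0.996) and Phka1 (0.996). For Gclc they were Aatk (0.988), Ttc14 (0.961) and Zfp738 (0.955), of which Aatk had a mean of 32 normalized counts in NTG. Gclc did not differ between the groups. The highest of 11310 values of r over 7 libraries can be this large by chance, and no test was made.

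Of 51 other genes of glutathione metabolism, 47 were in the table, and 7 were called higher and 1 lower (17.2% of all genes were called). Their median Log2FC was 0.10. The share of the 47 that was called was thus no higher than that of all genes. Called were 2 of 5 in glutathione transport, 2 of 4 enzymes that use glutathione as a cofactor, and 2 of 9 other breakdown genes. Of the amino acid transporters, 1 of 11 was called. Among supply of glutamate, glycine and serine 0 of 9 were called, and among supply and disposal of cysteine 1 of 9.

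Esd and Glo1 belong to pathways that remove aldehydes bound to glutathione. Esd, S-formylglutathione hydrolase, had normalized counts of 622, 642, 715 and 705 in NTG and 5056, 4171 and 3403 in mNrf2-TG. The Log2FC of Esd was 2.65 (SE 0.12, adjusted p = 1.15e-06 from edgeR), beside 2.68 for Gclm, and the difference between these genes was not tested. Glo1, glyoxalase 1, had 710.4, 761, 1102 and 718 in NTG and 1704, 1112 and 1654 in mNrf2-TG, a Log2FC of 0.86 (adjusted p = 0.0115). NTG 3 and mNrf2-TG 18 nearly met, and without mNrf2-TG 17 the adjusted p was 0.0533. Hagh and Adh5, the partners of Glo1 and Esd, were not called.

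Slc25a40 and Abcc1 carry glutathione or its conjugates across membranes, the first a mitochondrial importer and the second an exporter at the cell surface. Slc25a40 had normalized counts of 82.8, 81, 94.9 and 82.7 in NTG and 166, 162 and 121 in mNrf2-TG (Log2FC 0.80, adjusted p = 0.00474 from edgeR), while its paralog Slc25a39 was not called (Log2FC 0.07). Abcc1 had 292, 311, 357 and 306 in NTG and 391, 418 and 479 in mNrf2-TG (Log2FC 0.44, adjusted p = 0.015). Without mNrf2-TG 19 the adjusted p of Abcc1 was 0.0566, the highest of 14 alternatives.

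Of 11 amino acid transporters in the table, 1 was called, Slc1a2, a glutamate transporter best known from astrocytes. It had raw counts of 7 to 9 in NTG and 96, 36 and 37 in mNrf2-TG 17 to 19, a Log2FC of 2.75 (SE 0.45, adjusted p = 0.00412 from edgeR). The value rests in part on mNrf2-TG 17, without which the Log2FC was 2.03 and the adjusted p 0.00487. Over the 14 alternatives its adjusted p was at most 0.016, without NTG 2.

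Anpep and Lap3, aminopeptidases that can split cysteinylglycine, had higher counts in all 3 mNrf2-TG libraries than in any NTG library. The Log2FC of Anpep was 0.68 (adjusted p = 0.0188 from edgeR) and that of Lap3 0.31 (adjusted p = 0.032). Anpep was not called without mNrf2-TG 18 or without mNrf2-TG 19 (adjusted p up to 0.0728), and Lap3 lost its call in 5 of 7 fits that omitted a library (adjusted p up to 0.0935).

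Mat2a, which makes S-adenosylmethionine at the head of the route from methionine to cysteine, was the only one of these 47 genes called lower. It had 1606, 1636 and 1522 normalized counts in NTG 1 to 3 and 1580.4 in NTG 4, against 998, 980.5 and 1201 in mNrf2-TG, a Log2FC of -0.58 (SE 0.0840, adjusted p = 0.00208 from edgeR). The enzymes that form cysteine further along were barely counted, with at most 2 counts of Cbs and 3 to 19 of Cth in any library, a level at which moderate changes could not be detected. Ggt1, the main γ-glutamyl transferase of other tissues, had at most 5 counts in any library. Chac1, which is kin to Chac2 and is induced by Atf4, had raw counts of 50 to 102 (NTG) and 53 to 84 (mNrf2-TG) and was not called (Log2FC -0.13, SE 0.26, adjusted p = 0.772).

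**Figure D5:**
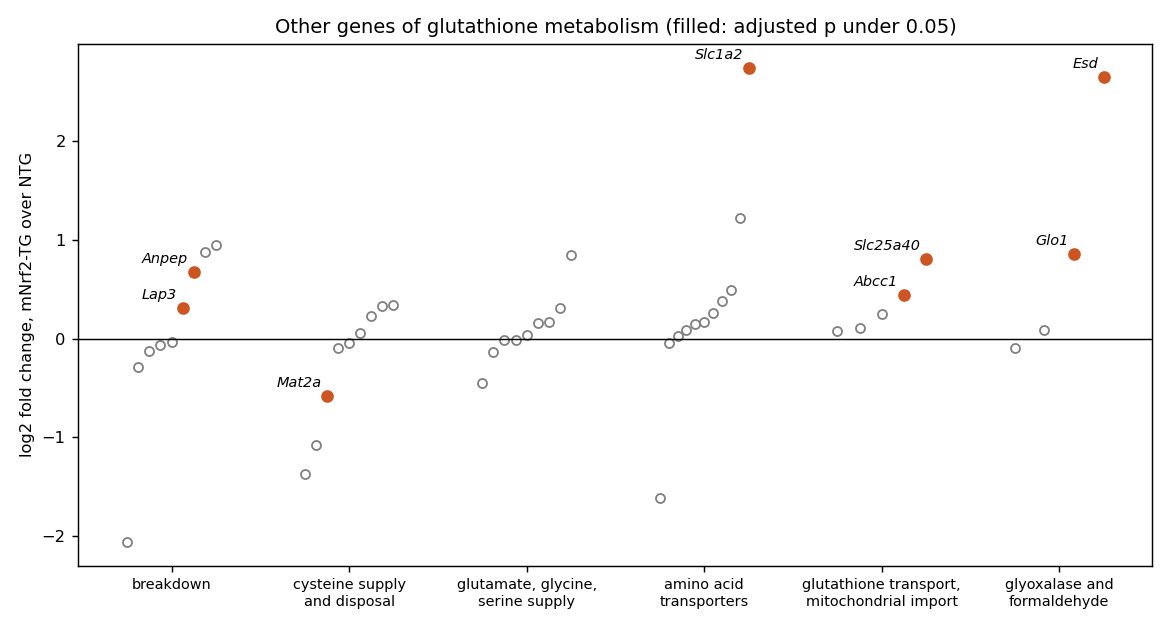
Log2FC (vertical axis) of the 47 other genes of glutathione metabolism, 1 point per gene, sorted within 6 groups by function, filled where called and open where not. Esd (2.65) and Slc1a2 (2.75) stand highest, and the lowest open points are genes with few counts such as Ggt1 and Slc3a1.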

How the data were processed

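RNA of 4 NTG and 3 mNrf2-TG hearts was made into stranded poly(A) libraries and read from one end over 50 bases. Alignment by the authors used Novoalign 2.08.01 (per the labels, mm10 or GRCm38; the methods also name hg19) and they kept the best alignment of each read. The counting program and the use of strand are not given in the sources used here. The authors deposited counts per gene without normalization, which were used here. Their rlog values and the columns of their DESeq2 1.32.0 comparison (mean, fold change, error and p-values) were not used, and gene symbols were taken from that table.

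Of 14665 entries, 24 repeated an Entrez gene and were removed, and the 14637 genes with a summed count above 1 were tested with edgeR 4.0.16 (TMM, quasi-likelihood test, no covariates) under R 4.3.3, with Benjamini-Hochberg adjustment. Standard errors were obtained from F, as |Log2FC| over its square root. Ratios used counts plus 0.5 and an exact permutation test. Lengths and positions are those of GENCODE M21 (GRCm38). With 6534684 to 8405857 counted reads per library, errors cover the spread between mice and counting. The edgeR fit was tested on simulated counts. Alternatives were DESeq2 1.42.0, limma-voom (limma 3.58.1), other scalings and filters, and leaving out each library. The members, lists and tests were chosen with earlier results of these data known. The text names all members, the called genes of the pathway lists without overlap, and Ggt1, Chac1, Cth and Cbs, and of the other lists the extremes among those called. Acss2, Gssos1, Gssos2, Exosc4, Smpd5, Gm17494 and Gm6061 were named after the exon overlaps were seen. Slc25a39, Hagh, Adh5, the other light chains, G6pdx, Hmox1, Slc3a1, Plin1, Myh1, Myl7, Myl4, Sln and Myl2 were named after the values were seen. Python 3.11.15 with pandas 2.3.3 and matplotlib 3.10.9 made the tables and plots.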

Additional observations from a re-analysis of the deposited data

Results flagged for a closer look

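In 3 of 26 groups of 4 NTG values examined, 1 library stood apart by Dixon's test, where chance gives about 5%. For Gss it was NTG 1, with 132 normalized counts against 107 to 111 in the others, a gap of 0.864 of the range. For Slc25a40 it was NTG 3, with 94.9 against 81 to 82.8 (0.874 of the range). For Glo1 it was again NTG 3, with 1102 against 710.4 to 761 (0.872 of the range). The Log2FC of Gss ranged from 0.74 to 0.86 and that of Slc25a40 from 0.72 to 0.94 over the 7 fits without 1 library, and both were called each time, whereas Glo1 was called in 6 of these 7 fits.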

How the results depend on the processing

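The 5 calls among the 10 members were made in all 14 alternatives (DESeq2's Wald test, limma-voom, other scalings and filters, and each library left out), and the 5 members not called were called in none. The number of other pathway genes called, 8 of 47, ranged from 5 to 9 over the fits without 1 library, lowest without mNrf2-TG 19, and the number over all genes, 2519, between 1373 without mNrf2-TG 17 and 2950 without NTG 3. With a library left out, the log2 difference of the ratio lay between 2.63 and 2.78 for Gclm to Gclc, 0.71 and 0.90 for Gss to Gclc, and 0.55 and 0.75 for Slc7a11 to Slc3a2. The exact test cannot pass 0.05 with 6 libraries, since its smallest p is then 0.0667 or 0.1. Adding no pseudocount or 5 changed no ratio's call. Scaled by total counts only, 1383 genes were called higher and 1034 lower (1241 and 1278 with TMM), and the member calls kept their direction. With the longest transcript as the length, the levels of 6 of 10 members in NTG moved by more than 1 SD. No paired analysis was possible, because the sources used here do not give the litter of each library and the groups share no replicate number. For Ggt5, near 50 counts, depth limits the precision, and its 95% interval ran from -0.03 to 0.68.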

Other observations

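In the NTG group, libraries 1 and 2 both had higher normalized counts than 3 and 4 for 3 of the 10 members, Gclc, Gclm and Ggct, and the other 7 did not show this order. Of 11 Nrf2 targets outside glutathione metabolism, 4 showed it, Srxn1, Hmox1, Taldo1 and Ftl1. For Gclm the values were 199 and 194 against 141 and 126, for Srxn1 358 and 362 against 218 and 205, for Hmox1 232 and 224 against 108 and 80.7, and for Ftl1 623 and 633 against 426 and 449. For Taldo1 the gap was small, with 605 and 607 against 595 and 581. The normalized counts of Nfe2l2 were 1402 and 1253 in NTG 1 and 2 and 752 and 1051 in NTG 3 and 4. Gsr had 180.5 and 219.6 against 235 and 207, and Nqo1 614 and 479.8 against 496 and 521. The order was noticed and these genes were picked after their values were seen, and no test was made. The share of all genes with this order was not counted, so whether 3 of 10 or 4 of 11 is unusual is not known. Gclm, Srxn1 and Ftl1 were nevertheless higher in all 3 mNrf2-TG libraries than in any NTG library, while Hmox1 in mNrf2-TG, at 135, 166 and 82.6, lay within the NTG range.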
